A study of Mus musculus with 6 samples.

Results

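The genes that encode the proteins of the cytosolic ribosome were followed through 6 arrays of RNA from Dicer KO and Dicer WT mouse macrophages. They were chosen by the array's gene names, as every name of the form Rpl or Rps with a number, plus Rplp0, Rplp1, Rplp2 and Rpsa, without the Rps6k kinase genes and without names marked as pseudogenes. This gave 84 genes of the 34812 gene names on the array, 50 with Rpl names (large subunit) and 34 with Rps names (small subunit), covered by 193 of 55627 probes. Of the 84, 79 were well above background on all 6 arrays. Rpl3l and Rpl39l were so on 0 arrays, Rpl7l1 on 2, and Rpl10l and Rps4y2 on 3.

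The cells were macrophages grown for 7 days from the bone marrow of mice aged 6 to 8 weeks, in medium with L929-conditioned supernatant, a source of the macrophage growth factor CSF1. Dicer KO cells came from LysM-Cre/Dicerflox/flox/Apoe–/– mice and Dicer WT cells from LysM-Cre/Dicerwt/wt/Apoe–/– mice, so by the labels both genotypes carried the myeloid Cre driver and lacked Apoe. From each genotype, 1 array was hybridised with RNA precipitated with an antibody to AGO2 (AGO2-RIP), 1 with RNA precipitated with control IgG (IgG-RIP) and 1 with RNA of the cleared lysate (input), so each group is 1 array and its own spread is unknown. All values are log2 signals minus the array's 75th percentile, or differences of such values. Equal cDNA mass was labelled for every array, so they are relative abundances, and fewer cells of a type and less RNA per cell cannot be told apart.

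Spots of probes printed 10 times differed on an array by an SD (root mean square over probes) of 0.14 to 0.21 log2, which gives 0.24 for a difference of 2 arrays and leaves out culture, precipitation and amplification. Dicer1, the targeted gene, read -0.55 in KO input, 0.94 in KO AGO2-RIP and not well above background in KO IgG-RIP, against 0.22, 0.93 and 0.18 in the same WT fractions. Which exons were floxed is not stated in the labels, and a probe outside them checks neither deletion nor labels. The labels call all mice male, yet Xist was above background on 0 of 3 KO and 3 of 3 WT arrays, and Ddx3y and Eif2s3y on 3 of 3 KO and 0 of 3 WT arrays. KO arrays also lay on another slide row than WT arrays, so genotype, sex and slide row cannot be told apart in any comparison of KO with WT. Macrophage markers were above background for 8 of 8 genes on each KO array and for 7 or 8 of 8 on the WT arrays, against 0 to 2 of 6 B cell markers, 0 or 1 of 6 fibroblast markers, 1 of 5 erythroid markers, 0 to 3 of 7 neutrophil markers and 1 to 3 of 6 T cell markers. The macrophage marker that was dim in WT was Lyz2, the lysozyme gene into which LysM-Cre is inserted, which read 5.67 in KO input, 3.56 in KO AGO2-RIP and 4.11 in KO IgG-RIP, against -2.19, -4.30 and -1.16 in the same WT fractions, where only IgG-RIP was well above background. The part of this difference in the comparisons of KO with WT was not tested.

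A ribosome joins ribosomal RNA with a set of proteins that are needed in fixed proportions. Their mRNAs belong to the TOP mRNAs, which begin with a run of pyrimidines at the cap, and whose translation is switched by the kinase mTOR and the cap-binding protein LARP1, so that the set is made or withheld together. Large-subunit proteins shape the peptidyl transferase centre and the stalk that recruits elongation factors, and small-subunit proteins shape the decoding site and the mRNA channel. AGO2 holds miRNAs, which Dicer cuts from their precursors, and carries them to target mRNAs. The comparisons ask how these mRNAs stood in cells without Dicer, and whether they were recovered with AGO2 beyond what IgG beads recovered.

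Many of these genes, though not all, have a pyrimidine run near the start. Here 7 starts are shown, 4 of genes that stand out below (Rpl38, Rpl14, Rpl28, Rps27l) and 3 more from the stalk and the small subunit. Each runs from 40 bases before the annotated start to the first 20 transcribed bases, 5′ to 3′, from RefSeq on GRCm38.p6. Capitals mark the longest unbroken run of C and T near the start.
Rpl38: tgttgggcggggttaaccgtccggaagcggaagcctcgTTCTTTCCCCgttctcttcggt
Rpl14: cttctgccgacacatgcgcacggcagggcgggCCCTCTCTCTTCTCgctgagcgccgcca
Rpl28: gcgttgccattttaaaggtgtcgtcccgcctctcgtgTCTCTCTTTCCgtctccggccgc
Rplp2: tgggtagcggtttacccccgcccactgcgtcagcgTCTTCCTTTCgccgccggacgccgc
Rps6: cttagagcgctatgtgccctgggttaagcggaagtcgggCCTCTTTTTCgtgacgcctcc
Rps10: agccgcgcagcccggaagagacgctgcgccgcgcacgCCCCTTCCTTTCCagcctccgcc
Rps27l: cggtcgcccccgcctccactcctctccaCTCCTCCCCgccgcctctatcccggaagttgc
They lie on GRCm38.p6 with Rpl38 at chr11:114668540-114668599 (plus strand), Rpl14 at chr9:120571477-120571536 (plus strand), Rpl28 at chr7:4792925-4792984 (plus strand), Rplp2 at chr7:141447611-141447670 (plus strand), Rps6 at chr4:86857348-86857407 (minus strand), Rps10 at chr17:27635225-27635284 (minus strand), Rps27l at chr9:66946046-66946105 (plus strand). In Rpl38, Rpl14, Rpl28, Rplp2, Rps6 and Rps10 the run spans the annotated start, with 5 to 10 of its bases transcribed. In Rps27l its 9 bases end 3 bases before the start. RefSeq windows were matched for 62 of the 84 genes (74 windows). Between 20 bases before and 50 after the start, 49 of these windows (66.2%) held a C and T run of 8 or more on the gene's strand, as did 25.4% of all 32851 windows. Within the whole 300-base windows, on either strand, the pyrimidine letters CTTTCC stood in 50% of the members' windows and in 26.6% of all, CTCTTT, which can overlap them, in 43.2% and 23.0%, and CCGGAAG, the letters bound by ETS factors, in 35.1% and 8.86%. These are letter matches, not sites.

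In input RNA, where KO is set against WT, the ribosomal protein mRNAs were lower in Dicer KO as a set and by a small amount. All 82 measured members had a value below 0, with a median of -0.51 (1.43-fold lower) and an SD of 0.17 between genes, against a median of -0.08 over all 14669 measured genes. None of the 82 was 2-fold lower and none 2-fold higher, while 1.72% of all genes were 2-fold lower and 1.02% 2-fold higher. Bright genes in general leaned the same way. The 1293 other genes whose mean input signal lay between the members' 5th and 95th percentiles (5.25 to 8.35) had a median of -0.28, with 83.3% of them below 0. The part of brightness in the members' shift was not tested. Relative to all genes the members' median was -0.44, and it was -0.18 with no filter on dim probes, where the median of all genes was -0.33 and that of the members still -0.51. Values of single genes were within 2 SD of the spot noise for 34 of the 82 members, and the share of all genes within it is not given here. With 1 array a group there is no test.

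The subunits lay close together. The median was -0.51 for 48 Rpl names and -0.52 for 34 Rps names. The lowest differences were those of Rpl12, a protein at the base of the stalk (6.86 in KO input and 7.71 in WT input, a difference of -0.85), Rps20 (6.80 and 7.64, -0.84), Rpl22, an RNA-binding protein needed in T cell development (4.99 and 5.82, -0.84), and Rpl6 (6.06 and 6.89, -0.83). Those nearest to 0 were Rps4y2 (-0.06), Rps3 (-0.07), Rpl8 (-0.12) and Rpl24 (-0.21). The stalk proteins, which contact elongation factors, lay close together: Rplp0 read 5.92 in KO input and 6.61 in WT input, Rplp1 5.14 and 5.79, and Rplp2 7.32 and 8.05, with differences of -0.70, -0.64 and -0.73. Rpsa, the laminin receptor precursor that joins the small subunit, differed by -0.55. The 2 brightest members, Rpl41 and Rps29, differed by -0.67 and -0.56. The 4 X-linked members, Rpl10, Rpl36a, Rpl39 and Rps4x, had a median of -0.51, close to that of all members. The chosen probe of Rps4x is placed on chromosome 3, so its value may hold signal of a copy there.

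**Figure D1:**
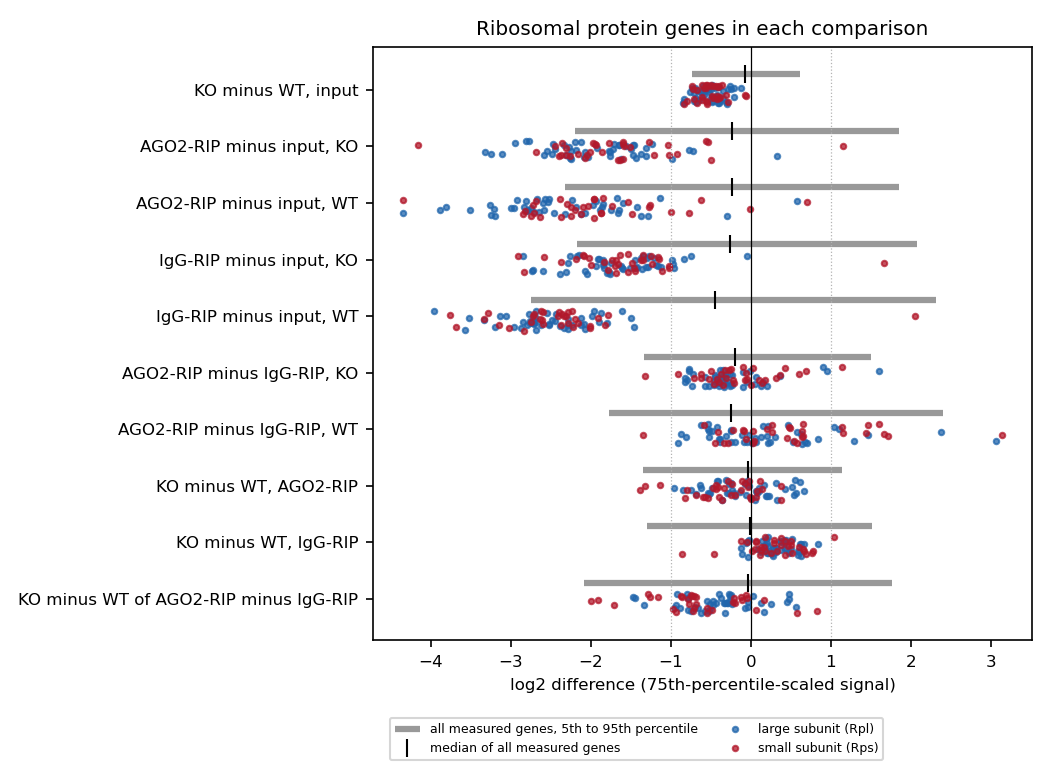
Each point is a ribosomal protein gene measured in the comparison named at the left, coloured by subunit, and the x axis is the log2 difference; the grey bar spans the 5th to 95th percentile of all measured genes and the black tick is their median. In KO minus WT input all 82 members lie left of 0, and in the 4 comparisons with input most lie left of -1.

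Both precipitates were poor in ribosomal protein mRNA relative to input. In AGO2-RIP, 71 of 80 measured members were at least 2-fold below input in KO and 73 of 79 in WT, against 26.4% and 26.3% of all genes, and 1 and 0 were 2-fold above it, against 14.6% and 14.8%. The medians were -1.89 in KO and -2.23 in WT (3.7-fold and 4.7-fold lower), with -0.24 over all genes in each genotype. In IgG-RIP, 73 of 80 members in KO and 78 of 79 in WT were 2-fold below input, against 28.8% and 37.0% of all genes, and 1 in each genotype was 2-fold above it, against 17.5% and 18.6%. The IgG-RIP medians were -1.63 in KO and -2.52 in WT. Other genes of the same input brightness also fell short of input, with medians of -1.29 in KO and -1.30 in WT for AGO2-RIP and of -1.22 and -1.79 for IgG-RIP. Of these other genes, 60.6% in KO and 58.4% in WT were at least 2-fold below input in AGO2-RIP. In IgG-RIP it was 59.9% in KO and 72.8% in WT.

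Over both genotypes, with genotype and fraction as terms, limma could test the precipitations, using the disagreement of the 2 genotypes as error. In AGO2-RIP minus input, 45 of 82 tested members fell and 0 rose at an adjusted p below 0.05, against 5.75% and 4.45% of all 18898 genes. In IgG-RIP minus input, 71 fell and 1 rose, against 15.8% and 14.3%. These p-values measure only the spread between these arrays, and no label tells whether the cultures were separate. Over the alternative settings the calls in both directions ran from 0 (quantile normalization) to 71 for AGO2-RIP and from 22 (quantile normalization) to 80 (median centring) for IgG-RIP.

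The deepest loss in AGO2-RIP was that of Rps2, a small-subunit protein near the mRNA entry site. It read 2.02 in KO AGO2-RIP, 3.34 in KO IgG-RIP and 6.18 in KO input, and 2.38, 2.97 and 6.73 in the same WT fractions, so the 4 precipitates lay below both inputs with no overlap. The limma difference was -4.26 ± 0.43 (SE, adjusted p = 0.0374) for AGO2-RIP and -3.30 ± 0.43 (adjusted p = 0.0197) for IgG-RIP. Its other probe, at base 807, lost less, with -1.83 in KO and -2.59 in WT for AGO2-RIP minus input. Rpl28 followed in AGO2-RIP and stood lower than Rps2 in IgG-RIP, with -3.84 ± 0.46 (adjusted p = 0.0374) and -3.41 ± 0.46 (adjusted p = 0.0197) by the same limma fit, and its other probe gave -2.16 in KO and -2.49 in WT AGO2-RIP. Rpl21 and Rpl26 were next in AGO2-RIP, at -3.54 ± 0.40 and -3.50 ± 0.46 (limma adjusted p = 0.0374 for each). Among the lowest in IgG-RIP were also Rps7 in KO (-2.91) and Rps26 in WT (-3.68).

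The stalk genes and Rpsa lost less than Rps2, Rpl28, Rpl21 and Rpl26. The members' limma median was -2.06 for AGO2-RIP minus input and -2.02 for IgG-RIP minus input, and Rplp2 lay below the first. The limma difference of AGO2-RIP from input was -1.58 ± 0.45 for Rplp0 (adjusted p = 0.0805), -1.60 ± 0.41 for Rplp1 (adjusted p = 0.0654), -2.18 ± 0.45 for Rplp2 (adjusted p = 0.0466) and -1.84 ± 0.45 for Rpsa (adjusted p = 0.0602), of which only Rplp2 passed. The limma difference of IgG-RIP from input was -1.73 for Rplp0, -1.39 for Rplp1, -1.76 for Rplp2 and -1.76 for Rpsa. Of these genes, Rplp1 alone did not pass in IgG-RIP minus input (limma adjusted p = 0.0565). Rpl41 stood at -1.52 and -1.43 with adjusted p of 0.0761 and 0.0553 by limma.

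Of the 79 members above background on all arrays, 77 lay below input in all 4 precipitates and 67 by 2-fold or more in all 4. The 2 exceptions to the first count were Rpl38 and Rps3. The share of all genes that meet these joint counts was not computed. In the single comparisons, 81.4% to 84.4% of the other genes of the members' input brightness lay below input. By 2-fold or more it was 58.4% to 72.8% of them. Rpl38, a large-subunit protein whose loss in mice alters translation of Hox mRNAs, read 7.48 in KO AGO2-RIP, 5.88 in KO IgG-RIP and 7.16 in KO input, against 8.44, 5.38 and 7.87 in WT. It was thus above input in AGO2-RIP in both genotypes (0.32 in KO and 0.57 in WT, limma 0.45 ± 0.50, adjusted p = 0.571) and below it in IgG-RIP (limma -1.89 ± 0.50, adjusted p = 0.0433). With median centring the KO value was -0.18. Its other probe gave AGO2-RIP minus input values of 0.27 in KO and 0.70 in WT. Rps3 was above input in all 4 precipitates and was the member that rose in IgG-RIP (limma 1.86 ± 0.41, adjusted p = 0.0304), but its probes disagree, as given with the probes.

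**Figure D2:**
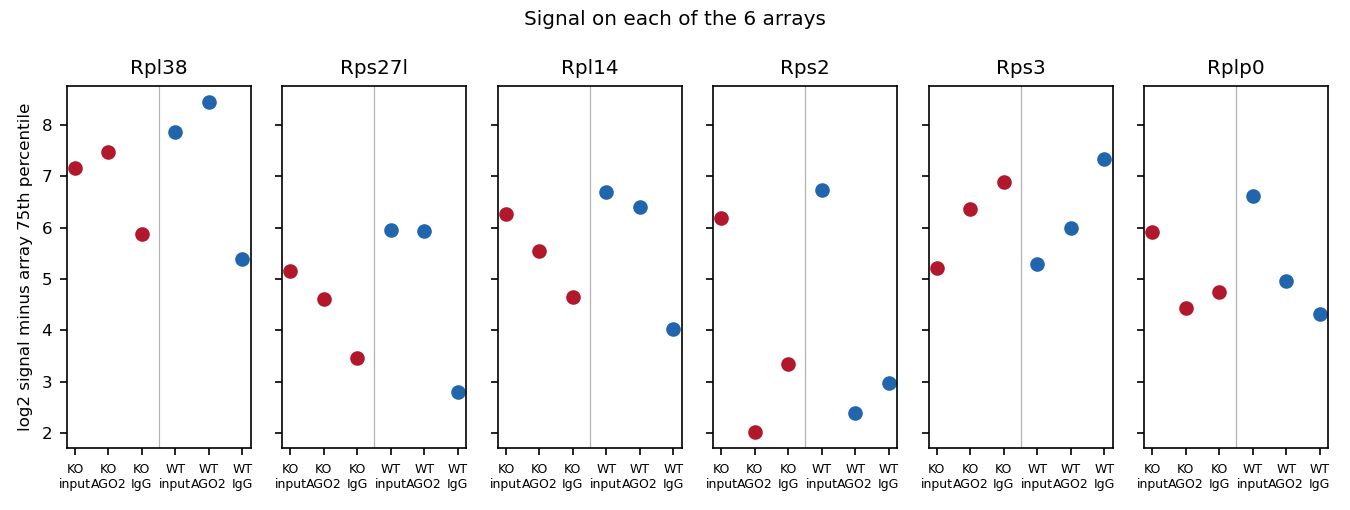
Each panel is a gene, each point an array (1 per group), KO arrays on the left in red and WT arrays on the right in blue, and the y axis is the log2 signal minus the array's 75th percentile. Rps2 and Rplp0 are low in both precipitates of both genotypes, Rpl38 and Rps27l are lowest in IgG-RIP, and Rps3 is high in the precipitates.

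Set against IgG-RIP, which shows what beads recover without the AGO2 antibody, AGO2-RIP held a few ribosomal protein mRNAs at higher levels in WT, while the others spread around 0. In KO, 2 of 79 members were at least 2-fold above IgG-RIP and 1 was 2-fold below it, against 10.5% and 9.92% of all genes, and 56 lay within 2 SD of the spot noise. In WT, 14 of 79 were 2-fold above and 1 was 2-fold below, against 20.3% and 22.2% of all genes, and 40 lay within 2 SD. The share of all genes within 2 SD is not given here, so those counts do not set the members apart. The members' median was -0.32 in KO and 0.15 in WT, where quantile normalization gave -0.24. The medians of all genes were -0.19 and -0.24. In neither genotype did the count of members 2-fold above IgG-RIP exceed the share among all genes.

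Rps27l, Rpl38 and Rpl14 were among the 4 highest members in each genotype. Rps27l, a paralog of Rps27 that p53 induces, read 4.61 in KO AGO2-RIP and 3.46 in KO IgG-RIP, a difference of 1.15, and 5.94 in WT AGO2-RIP and 2.80 in WT IgG-RIP, a difference of 3.14 (8.83-fold). Rpl38 differed by 1.61 in KO and 3.06 in WT (8.34-fold). Those were the 2 members past 2-fold in both genotypes. Rpl14 followed with 0.90 and 2.38, and Rpl29 with 0.95 and 1.46. Rps29 differed by 0.31 in KO and 1.60 in WT, and Rps27a, which encodes a fusion of ubiquitin with a small-subunit protein, by 0.69 and 1.67.

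Among the 4 lowest members in KO were Rps2 (-1.32), Rpl26 (-0.83) and Rpl36 (-0.82). The 4 lowest in WT were Rps3 (-1.35), Rpl22l1, the paralog of Rpl22 (-0.91), Rpl3, which helps form the peptidyl transferase centre (-0.87), and Rpl31 (-0.81). The stalk genes Rplp0, Rplp1 and Rplp2 stood at -0.33, -0.34 and -0.58 in KO and at 0.63, -0.08 and -0.25 in WT.

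By limma over both genotypes, AGO2-RIP minus IgG-RIP called 0 of 82 members in either direction at an adjusted p below 0.05, and 0.0% of all 18898 genes higher and 0.0% lower. At an unadjusted p below 0.05, 5 members and 3556 genes passed. The smallest adjusted p of a member was that of Rpl38 (limma 2.33 ± 0.50, adjusted p = 0.12), followed among those named here by Rps27l (2.14 ± 0.58, adjusted p = 0.17) and Rpl14 (1.64 ± 0.50, adjusted p = 0.194). When only genes above background on all 6 arrays were tested, 1 member was called, against 4.66% of all genes under that filter. A gene whose enrichment differs between the genotypes gains error in this fit.

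**Figure D3:**
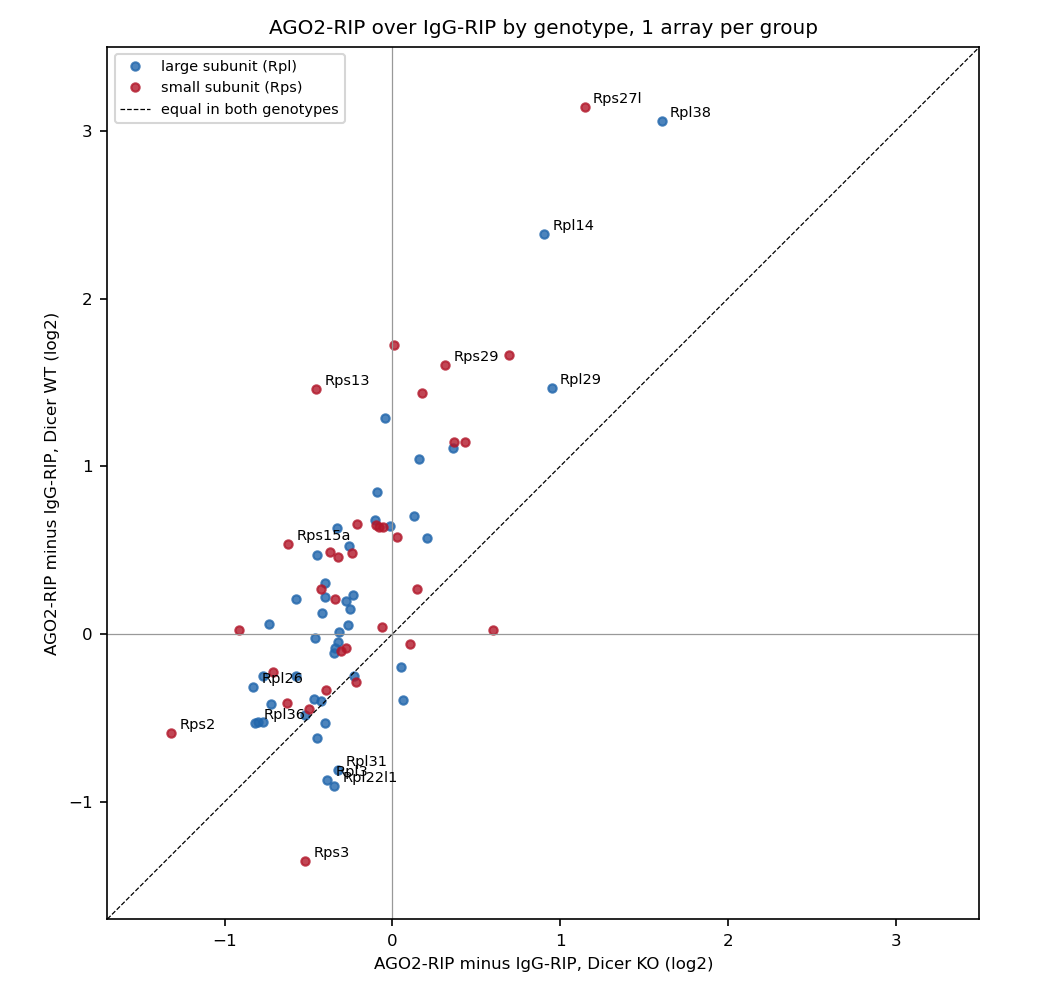
Each point is a member measured on all 4 precipitate arrays, with the AGO2-RIP minus IgG-RIP log2 difference in KO on the x axis and in WT on the y axis, 1 array per group; the dashed line marks equal values. Rpl38, Rps27l and Rpl14 lie farthest to the upper right, and 67 of 79 members lie above the dashed line. Of the 1293 other genes of the members' input brightness, not plotted, 70.2% had a lower value in KO than in WT.

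The genotypes were then set against each other in the precipitates. The KO minus WT difference of AGO2-RIP over IgG-RIP was below 0 for 67 of 79 members, with a median of -0.52, against -0.03 over all 14058 genes and -0.34 over the other genes of the members' input brightness. Of those other genes of like brightness, 70.2% were below 0 too. The difference was 2-fold or more below 0 for 9 members and above it for 0, against 20.2% and 16.5% of all genes. Among the lowest were Rps27l (-1.996), Rps13 (-1.92) and Rpl14 (-1.48), and the highest Rps3 (0.83), Rps7 (0.57), Rpl22l1 (0.56) and Rpl31 (0.48). The median was -0.42 for Rpl names and -0.72 for Rps names. All 14 members past 2-fold over IgG-RIP in WT had a smaller value in KO, where 12 of them were above 0. These 14 were chosen for a high WT value, so their lower KO value is a description.

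Both precipitates carried part of this difference. In AGO2-RIP the KO minus WT median was -0.20, or 0.10 after quantile normalization, with 3 of 79 members 2-fold lower and 0 higher, against 11.0% and 6.9% of all genes. Rps27l (-1.33) and Rps13 (-1.14) were among those 3, Rpl38 was next after them (-0.96), and Rpl3 (0.66), Rpl31 (0.62), Rpl6 (0.57) and Rpl19 (0.55) were highest. In IgG-RIP the median was 0.31, with 1 member 2-fold higher and 0 lower, against 11.0% and 8.94% of all genes. Rps15a (1.05) was highest there, ahead of Rpl26 (0.84), Rps13 (0.78) and Rps25 (0.76), while Rps7 (-0.86), Rps3 (-0.46), Rps28 (-0.12) and Rpl29 (-0.12) were lowest.

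Paralogs of ribosomal proteins, which can replace them in some tissues, were mostly dim. Rpl3l, known from muscle, and Rpl39l, known from testis, had no array above background. Rpl10l, the testis paralog of Rpl10, was above background in both inputs and in KO IgG-RIP, and Rpl7l1 in both inputs only. Rpl7l1 was at least 2.01-fold lower in KO AGO2-RIP than in KO input and at least 2.3-fold lower in WT AGO2-RIP than in WT input, each a bound against a dim spot. Rps4y2, despite its name, is annotated with a non-coding record, and its probe lies on chromosome 6. It was at least 2.1-fold higher in KO than in WT AGO2-RIP, also a bound against a dim spot. Its KO AGO2-RIP value was itself low (-1.61), and its KO minus WT input difference was -0.06. Rpl22l1 fell in AGO2-RIP (limma -2.59 ± 0.41, adjusted p = 0.0374) and in IgG-RIP (-1.96 ± 0.41, adjusted p = 0.0278), while Rps27l stood at -0.28 ± 0.58 in AGO2-RIP (limma adjusted p = 0.769) and fell in IgG-RIP (-2.42 ± 0.58, adjusted p = 0.0352).

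What a gene's value was depended in some cases on where its probe lay. Shown are 2 probes within coding sequence, that of Rps2, the member lowest in AGO2-RIP relative to input, and the upstream probe of Rpl15. The letters at which Alu I and Rsa I cut, AGCT and GTAC, would be in capitals, since cDNA was cut with these enzymes before labelling, and neither probe holds them.
Rps2: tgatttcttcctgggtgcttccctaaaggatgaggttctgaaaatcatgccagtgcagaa
Rpl15: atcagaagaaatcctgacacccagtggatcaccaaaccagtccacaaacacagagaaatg
They lie on mm9 with Rps2 at chr17:24857583-24857642 (plus strand) and Rpl15 at chr14:19101657-19101716 (minus strand). Such letters stood in the probes of 25 members (29.8%), against 33.7% over all genes. Of 61 members with 2 or more probes above background on all arrays, the median SD between a gene's probes was 0.07 for KO minus WT input, 0.14 in KO and 0.17 in WT for AGO2-RIP minus IgG-RIP, and 0.32 and 0.31 for AGO2-RIP minus input. On 41 transcripts with probes at least 60 bases apart, the probe nearer the 3′ end was higher in AGO2-RIP minus input in 36 in each genotype, with a median gap of 0.64 in KO and 0.42 in WT. For IgG-RIP minus input it was higher in 34 in KO and 29 in WT, and for KO minus WT input in 16. The share among all genes with such probes was not computed, so these counts do not set the members apart.

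Single genes showed wider gaps. The shown probe of Rpl15 starts at base 461 of the transcript and differed from IgG-RIP by -0.09 in KO and 0.85 in WT AGO2-RIP, while the probe at base 1530 differed by 0.86 and 4.37. For Rpl22 the probe at base 546 gave 0.20 and 0.57, and the probe at base 2023, on another transcript record, gave -0.47 and 2.59. Rpl6 went the other way in WT only: its chosen probe at base 787 gave 0.05 and -0.20, and that at base 1154 gave 0.68 and -2.85. The values of Rps3 are those of its brightest probe, at base 1795, which read 6.36 in KO AGO2-RIP, 6.88 in KO IgG-RIP and 5.22 in KO input, against 5.99, 7.34 and 5.29 in WT. Its probes at bases 763 and 824 lay below input in all 4 precipitates, at -0.54 and -0.65 in KO AGO2-RIP and -1.55 and -1.52 in WT AGO2-RIP. Taking the median over probes, Rps3 was 0.19 below input in KO IgG-RIP and 0.74 below it in WT IgG-RIP (differences of -0.19 and -0.74).

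**Figure D4:**
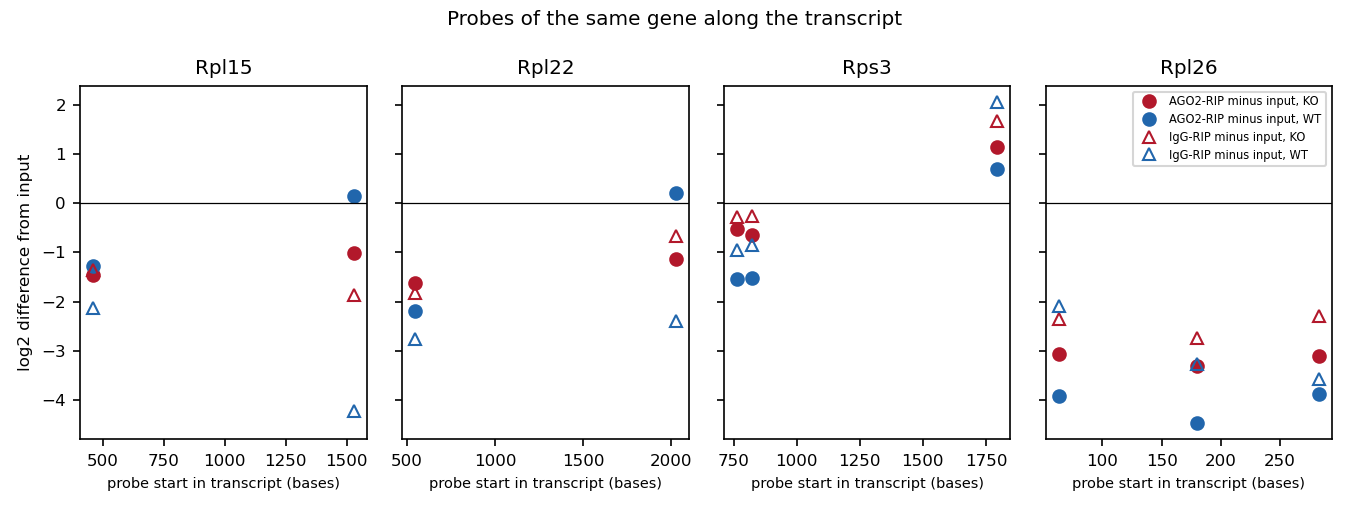
Each point is a probe above background on all 6 arrays, placed by its first base in the transcript (x axis, bases) and by its log2 difference from input (y axis), for 4 genes; circles are AGO2-RIP, triangles IgG-RIP, red KO and blue WT. In Rps3 the probe at base 1795 lies above 0 in all 4 comparisons and the upstream probes below it, and in Rpl15 the distal probe separates AGO2-RIP from IgG-RIP in WT.

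Ribosomal protein genes have many processed copies in the genome, and the files place the chosen probes of Rpl13, Rps27, Rps29 and Rps4x on other chromosomes than those of the genes, so signal of copies cannot be told apart from theirs. The names of 2 members, Rps12l2 and Rps4y2, were not found in RefSeq. The 5 genes named as ribosomal protein pseudogenes on the array had a KO minus WT input median of -0.46. By limma 3 of 5 fell in AGO2-RIP and 4 of 5 in IgG-RIP, against 5.75% and 15.8% of all genes.

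Other lists show which genes shared the members' values. The 23 other TOP mRNAs, mostly translation factors, had a KO minus WT input median of -0.39, with 21 below 0. Of the 1293 other genes of the members' input brightness, 83.3% were below 0 too. The TOP mRNAs ran from Gnb2l1, the ribosome-bound scaffold now called Rack1 (-0.67), and Eef1b2 (-0.59) to Eif4b (0.00) and Hnrnpa1 (0.17). By limma 6 of 23 fell in AGO2-RIP and 10 in IgG-RIP, against 5.75% and 15.8% of all genes. Eef1g, a subunit of the elongation factor that delivers tRNA, stood out with 2.13 in KO and 3.66 in WT for AGO2-RIP over IgG-RIP, and with 2.14 over input in WT. The 31 ribosome biogenesis genes tested by limma act in the nucleolus and in subunit assembly. Of them, 0 fell in AGO2-RIP and 7 in IgG-RIP, against 5.75% and 15.8% of all genes. At an unadjusted limma p below 0.05, in either direction, 9 passed in AGO2-RIP minus input, as did 6331 of all 18898 genes. The KO minus WT input median of 30 of the list was -0.15. In that list Nhp2 (-0.69) and Ppan (-0.59) were lowest and Nol6 (0.80) and Utp20 (0.71) highest.

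The mTOR and TOP regulators had a KO minus WT input median of 0.08 over 17 genes. Ddit4, an inhibitor of mTOR complex 1, was highest (1.02), followed by Tsc2 (0.99), a further inhibitor, and Eif4ebp1, a translation repressor that mTOR inactivates, was lowest (-1.13), followed by Rptor (-0.45). Mitochondrial ribosomal protein genes had an input median of -0.25, and in WT a median of 0.81 for AGO2-RIP over IgG-RIP with 32 of 67 past 2-fold, against 20.3% of all genes. Proteasome subunits, also a set of proteins made in fixed proportions, had an input median of 0.02. In AGO2-RIP minus input limma called 5 of 76 mitochondrial ribosomal and 4 of 37 proteasome genes lower, against 5.75% of all genes. Their limma medians there were -1.39 and -1.35, against -2.06 for the cytosolic members and -0.03 for all genes. In IgG-RIP minus input 41 of 76 and 17 of 37 were called lower, against 15.8% of all genes, and 1 and 0 higher. The medians there were -1.90 and -1.51, against -2.02 for the cytosolic members and -0.25 for all genes. The difference between these lists and the cytosolic set was not tested.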

How the data were processed

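Each sample was hybridised to a 1-colour Agilent array whose probes, 60 bases long, carry mm9 positions in the files. The deposited processed signal is an intensity from Agilent Feature Extraction 10.7.3.1, per the submitters' processing notes, from which, per the file headers, background was subtracted with no scaling between arrays. Per the labels' protocols, RNA was reverse-transcribed, pre-amplified, digested with restriction enzymes and given Cy3 in a random-primed reaction, 500 ng of cDNA each, which can weight transcripts unequally.

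Log2 of the intensity minus each array's 75th percentile was taken, outlier spots were masked (54 probes left out), spots of a probe were averaged, and a gene was its probe with the highest mean. A gene was measured where its probe was well above background on the arrays compared, a 2-fold difference was not tested, and a fold given as "at least" is the bright value over the higher of the dim probe and the dimmest probe above background on its array. The 3 precipitation contrasts were tested with limma 3.58.1 in R 4.3.3 (genotype plus fraction, 2 residual degrees of freedom, two-sided, Benjamini-Hochberg adjustment over 18898 genes above background on at least 2 arrays), which was checked on simulated data. Genes were named if they were the 4 highest or lowest members of a comparison, the stalk genes, Rpsa, the 2 brightest members, paralogs, and the 2 highest and 2 lowest genes of other lists; further members were named after their values were seen. Some members that this rule picks are not reported here by name. Members, lists and settings were chosen with earlier results of these data known. Other steps used Python 3.11.15, numpy 2.4.6 and pandas 2.3.3. The number of arrays, 1 per group, limits the precision.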

Additional observations from a re-analysis of the deposited data

Results flagged for a closer look

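Rps15a, a small-subunit protein gene, moved opposite ways in the genotypes, and each way by more than 2 SD of the spot noise. AGO2-RIP minus IgG-RIP was -0.62 in KO and 0.54 in WT, a KO minus WT difference of -1.16. Its other probe above background, at base 320, gave -0.64 in KO and 0.55 in WT. Most of it lay in the control precipitate: KO minus WT was -0.12 in AGO2-RIP and 1.05 in IgG-RIP. With 1 array per group the difference between the genotypes was not tested.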

How the results depend on the processing

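The members' median relative to that of all measured genes, and the number of members called by limma, were recomputed under each alternative. Quantile normalization gave relative medians of 0.079 for AGO2-RIP minus IgG-RIP in WT (0.39 as reported), -1.16 in KO and -1.56 in WT for AGO2-RIP minus input (-1.65 and -1.997), and -0.97 and -1.39 for IgG-RIP minus input (-1.37 and -2.07). It left 0 members called in AGO2-RIP minus input and 22 in IgG-RIP minus input, against 45 and 72, and called 0 genes in all in AGO2-RIP minus input. Without a filter on dim probes the relative median was -0.18 for KO minus WT input (-0.44), 0.64 for AGO2-RIP minus IgG-RIP in WT, -1.59 for AGO2-RIP minus input in WT, and -1.87 in KO and -2.42 in WT for IgG-RIP minus input, and 25 members were called in AGO2-RIP minus input. Normexp gave 71 calls there, a test restricted to the genes bright on all 6 arrays 71, and fitting only the 4 arrays compared 68. That last fit gave 37 calls in IgG-RIP minus input, and the all-array filter gave 1 call in AGO2-RIP minus IgG-RIP. Taking the median over probes turned Rps3 below input, at -0.45 in KO AGO2-RIP, -0.19 in KO IgG-RIP and -0.74 in WT IgG-RIP. Every other relative median moved by less than the spot noise of a difference, and every other count by at most 1.5 times. That statement does not cover the further values that were recomputed. Of those, quantile normalization moved 269 and left 125, and median centring moved 227 and left 167. The median over probes moved 114, reversed 3 and left 277. Normexp moved 35 and left 359. Scaling also moved the median of all genes, which in IgG-RIP minus input in WT was -0.45 as reported, -1.04 with median centring and -0.14 with quantile normalization. The cause of these changes was not tested. No paired analysis was possible because each group holds 1 array, so no replicate numbers pair samples across groups. Genotype was already a term of the limma fit. That number, the shared confounding of genotype with sex and slide row, and probes that gene copies can share limit every comparison.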
